A study of Homo sapiens with 8 samples.

Results

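The microRNAs described are the high-numbered ones, registered late in the history of microRNA cataloguing. They were chosen by name and by level: rows named hsa-miR- with a number of 1000 or more, leaving out 2 such rows that the rule excludes, and with a mean of at least 1 RPM (the deposited unit, reads scaled to a library total of 1000000) over the 4 small RNA libraries. Of the 1506 rows in the small RNA table, 874 carried such a number and 108 of those passed the floor, among 392 rows of any name that did. The floor is a measured value, and the rule also names the comparison of shEZH2 with shCTRL, so the differences between these groups are given as a description. C4-2 is an established human prostate cancer cell line, kept in medium with serum. The small RNA libraries came from cells labelled shCTRL, a control short hairpin RNA, and from cells labelled shEZH2, a hairpin named for EZH2, the methyltransferase of Polycomb repressive complex 2, with 2 libraries in each group. A separate set of 4 polyA RNA libraries came from C4-2 cells labelled shCTRL or shCDCA8, again 2 in each group. The labels do not say whether the replicates were separate cultures, so p-values measure only the spread between these libraries, which may be technical.

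MicroRNAs are short RNAs cut from hairpin precursors by the nucleases DROSHA and DICER1 and loaded onto Argonaute proteins, where the bases near the 5′ end, the seed, pair with target messenger RNAs. The catalogue numbers them roughly in order of discovery, so the highest numbers mostly come from deep sequencing, and many of their entries are scarce, short or rich in G and C. Several coincide with pieces of transfer, ribosomal, small nuclear or small nucleolar RNA, and others, the mirtrons, are whole short introns released by splicing.

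Mature sequences from RefSeq (GRCh38.p14) were matched by name for 98 of the 108 members. Of the 10 most abundant members, the 6 that appear in none of the later sets are shown first, 5′ to 3′, with the seed (bases 2 to 8) in capitals.
miR-1180-3p: uUUCCGGCucgcgugggugugu
miR-1307-3p: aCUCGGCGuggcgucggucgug
miR-2110: uUGGGGAAacggccgcugagug
miR-1301-3p: uUGCAGCUgccugggagugacuuc
miR-4521: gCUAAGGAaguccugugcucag
miR-3615: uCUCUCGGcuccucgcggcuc
On GRCh38.p14 miR-1180-3p lies at chr17:19344513-19344534 on the minus strand, within the span of B9D1, a gene of the ciliary transition zone. miR-1307-3p lies at chr10:103394301-103394322 on the minus strand, within ATP5MK, a small subunit of the mitochondrial ATP synthase that the polyA table lists under its older symbol USMG5. miR-2110 lies at chr10:114174151-114174172 on the minus strand, within CCDC186, and miR-1301-3p at chr2:25328651-25328674 on the minus strand, within DNMT3A, a DNA methyltransferase. miR-4521 lies at chr17:8186948-8186969 and miR-3615 at chr17:74748663-74748683, both on the plus strand. Only gene spans were available, so exons, introns and untranslated regions were not told apart.

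Another set is shown for its 3′ end, the letters CCA, here in capitals, which every mature transfer RNA also carries.
miR-7977: uucccagccaacgcaCCA
miR-1260a: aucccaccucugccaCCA
miR-4454: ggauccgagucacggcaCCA
Among the 98 members with a sequence, 5 ended in CCA (5.10%), namely these 3, miR-1306-5p and miR-4484. The same ending was found in 45 of the 2370 human mature sequences in the table (1.90%) and in 1 of 235 kept microRNAs numbered under 1000. miR-7977 lies at chr3:176515103-176515120 and miR-1260a at chr14:77266231-77266248, both on the plus strand, and miR-4454 at chr4:163093607-163093626 on the minus strand.

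A further set is shown because its members read almost like an abundant older microRNA. Seeds are in capitals, and positions are counted from 1 at the 5′ end. These comparisons were chosen after the sequences had been seen.
let-7f-5p: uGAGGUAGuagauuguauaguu
miR-1827: uGAGGCAGuagauugaau
let-7c-5p: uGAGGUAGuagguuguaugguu
miR-4510: uGAGGGAGuaggauguaugguu
miR-6130: uGAGGGAGuggauuguaug
miR-26b-5p: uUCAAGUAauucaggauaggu
miR-1297: uUCAAGUAauucaggug
Over its 18 bases miR-1827 differed from let-7f-5p by U6C, inside the seed, and U16A. Over 22 bases miR-4510 differed from let-7c-5p by U6G and U13A, and over 19 bases miR-6130 differed from it by U6G, A10G and G12A. miR-1297 differed from miR-26b-5p over 17 bases by A16U and U17G, outside the seed, and was the only member that shared its seed with a kept row under 1000 or with let-7. Reads of such pairs could be divided between rows by the authors' counting, so these 4 members are uncertain. miR-1827 lies at chr12:100189932-100189949, miR-4510 at chr15:35926863-35926884 and miR-6130 at chr21:23079354-23079372 on the plus strand, and miR-1297 at chr13:54311981-54311997 on the minus strand.

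The last set is shown for its base composition and for sequences shared between rows, with the seed in capitals.
miR-1268a: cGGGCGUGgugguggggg
miR-1268b: cGGGCGUGguggugggggug
miR-6724-5p: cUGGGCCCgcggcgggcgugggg
miR-1908-5p: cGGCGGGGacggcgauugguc
miR-1908-3p: cCGGCCGCcggcuccgccccg
miR-4497: cUCCGGGAcggcugggc
miR-4292: cCCCUGGGccggccuugg
miR-1268a, at chr15:22225308-22225325 on the minus strand, was identical to the first 18 bases of miR-1268b, at chr17:80098831-80098850 on the plus strand. A read of those bases belongs to either row. miR-1908 lies within FADS1, a fatty acid desaturase gene, on the minus strand of chromosome 11, with the 5p arm at chr11:61815209-61815229 and the 3p arm at chr11:61815172-61815192. miR-6724-5p matched 2 listed copies, at chr21:8249515-8249537 and chr21:8432540-8432562 on the plus strand. miR-4292 lies at chr9:136830996-136831013 on the plus strand, within RABL6, and miR-4497 at chr12:109833350-109833366 on the plus strand.

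The rows held 4064692 and 4582403 reads in the shCTRL libraries and 6765539 and 5980595 in the shEZH2 libraries, 10.8% to 18.3% of the total each library had been divided by. Because that percentage differed between the groups, levels are given as reads scaled to 1000000 reads in the microRNA rows (mRPM), and the deposited RPM is used as the other scale. EZH2 RNA in the small RNA cells was not analysed here, so the hairpin's effect on its target was not checked. Among 13 microRNAs known for other cell types, the summed level was 6925 and 26284 mRPM in shCTRL and 8346 and 9984 mRPM in shEZH2, most of it miR-451a, a red blood cell microRNA, at 4784, 23880, 5010 and 7800 mRPM. miR-206, a defining microRNA of skeletal muscle, was at 0 in both shCTRL libraries and at 0.148 and 0.669 mRPM in shEZH2. A count of 0 allows up to 0.738 and 0.655 mRPM in the shCTRL libraries (3 reads each, counting error only). The sum was highest in 1 shCTRL library and overlapped between the groups. Of the 13, 3 were higher in both shEZH2 libraries, namely miR-206, miR-143-3p and miR-126-3p. miR-143-3p, known from smooth muscle and fibroblasts, stood at 129 and 160 mRPM in shCTRL and 361 and 431 mRPM in shEZH2. miR-126-3p, known from endothelium, stood at 1506 and 1398 mRPM in shCTRL and 2096 and 1511 mRPM in shEZH2. Another 2 were lower in both, miR-486-5p at 121, 679, 57.8 and 68.4 mRPM and miR-150-5p at 28.8, 48.7, 22.9 and 14.7 mRPM in the order shCTRL 1, shCTRL 2, shEZH2 1, shEZH2 2. Their part in the members' values was not tested.

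The 108 members held 4.04% and 3.86% of the reads in the rows in the shCTRL libraries and 2.55% and 2.90% in the shEZH2 libraries. Both shEZH2 libraries were below both shCTRL libraries, 2.72% ± 0.251 against 3.95% ± 0.126 (SD, n = 2 each). With 2 libraries a group, an exact two-sided permutation test cannot give a p under 0.333. The members' own reads were nearly level, at 164178 and 176924 in shCTRL and 172301 and 173560 in shEZH2, while the reads in all rows were more numerous in both shEZH2 libraries. As summed deposited RPM the members stood at 4381 and 5416 in shCTRL and 4660 and 4394 in shEZH2, where the groups overlapped. The 3 most abundant members (miR-1180-3p, miR-1307-3p and miR-7977) held 67.0%, 69.8%, 65.2% and 63.4% of the members' reads in the order shCTRL 1, shCTRL 2, shEZH2 1, shEZH2 2, and the top 10 held between 82.9% and 87.1%. Of the difference of -1.23 points between the mean shares of the groups, the 3 most abundant members made up -0.952 and the other 105 members -0.274. The median member had a mean of 3.33 RPM, against 13.7 RPM for the kept rows numbered under 1000.

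Reads of miR-1180-3p were the most stable of these 3 between replicates, at 9707 and 9179 mRPM in shCTRL and 7296 and 7236 mRPM in shEZH2. Both shEZH2 libraries were below both shCTRL libraries, with a log2 difference of -0.38 ± 0.124 (SE). On the deposited scale the difference was 0.05, the other way, and the groups overlapped. miR-1307-3p stood at 11413 and 9977 mRPM in shCTRL and at 4865 and 5803 mRPM in shEZH2. It was the most abundant member in the shCTRL libraries and the second in the shEZH2 libraries, and its groups did not overlap. Its log2 difference was -1.01 ± 0.163 (SE), with an adjusted p of 0.306 in limma, the smallest of any member, and of 0.285 in edgeR, while DESeq2 gave an adjusted p of 0.00716. On the deposited scale the difference remained negative, at -0.57. miR-7977 stood at 5958 and 7806 mRPM in shCTRL and 4434 and 5364 mRPM in shEZH2, lower in both shEZH2 libraries, with shEZH2 replicate 2 near shCTRL replicate 1. Its log2 difference was -0.48 ± 0.203 (SE), and -0.05 on the deposited scale, where the groups overlapped.

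**Figure D1:**
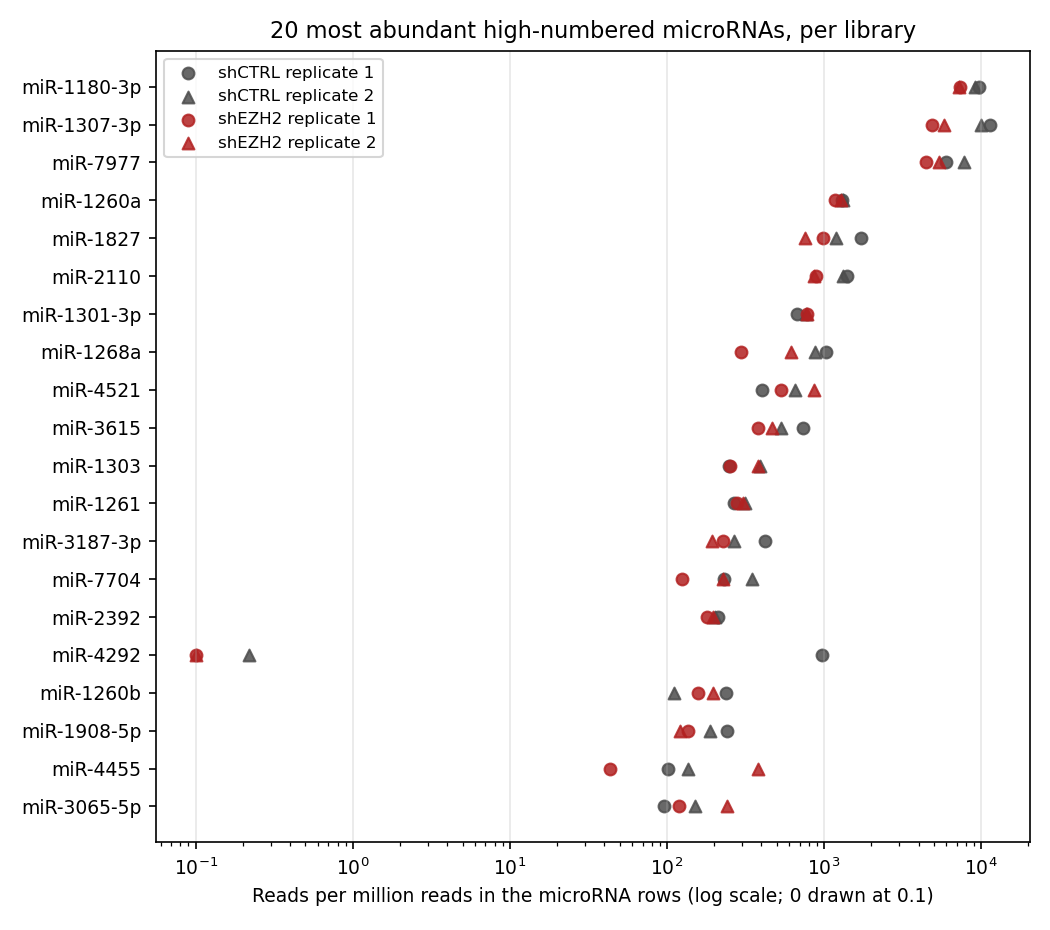
Levels of the 20 most abundant high-numbered microRNAs in each small RNA library, in mRPM on a log axis, with a value of 0 drawn at 0.1; grey marks are shCTRL, red marks shEZH2, circles replicate 1 and triangles replicate 2. miR-1307-3p was at 11413 and 9977 in shCTRL and at 4865 and 5803 in shEZH2, and miR-4292 was high in 1 library only.

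In the next tier of abundance, miR-2110 and miR-3615 were lower in both shEZH2 libraries. miR-2110 stood at 1392 and 1326 mRPM in shCTRL and 896 and 866 mRPM in shEZH2, a log2 difference of -0.62 ± 0.153 (SE). miR-3615 stood at 740 and 532 mRPM in shCTRL and 379 and 467 mRPM in shEZH2, a log2 difference of -0.58 ± 0.246 (SE). The groups did not overlap for either on the mRPM scale, and the replicates of miR-3615 lay farther apart than those of miR-2110. On the deposited scale the log2 differences were -0.19 for miR-2110, where the groups overlapped, and -0.14 for miR-3615, where they did not. miR-1301-3p stood at 671 and 766 mRPM in shCTRL and 779 and 777 mRPM in shEZH2, a log2 difference of 0.12 ± 0.168 (SE), smaller than its error, and 0.54 on the deposited scale. Among members with a mean of at least 5 RPM it was the only one higher in shEZH2 without overlap on the mRPM scale. miR-4521 stood at 405 and 650 mRPM in shCTRL and 531 and 867 mRPM in shEZH2, and its groups overlapped. In both groups replicate 2 was the higher library for miR-4521, and on the deposited scale both shEZH2 libraries were higher, by a log2 difference of 0.82. None of these 4 had an adjusted p under 0.05 in limma, edgeR or DESeq2.

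Over all members, limma called 0 of 108 at an adjusted p under 0.05, beside 0 of all 392 rows, a share of 0%. edgeR also called 0 of 392 (0%), and DESeq2 called 9 of the 369 rows it gave an adjusted p (2.44%), of which miR-1307-3p and miR-4292 are members. At an unadjusted p under 0.05 limma passed 18 members, each lower in shEZH2, beside 42 of all 392 rows (10.7%), 36 of them lower. Among the rows under 1000 it passed 24, of which 18 were lower. On the mRPM scale 68 members were lower and 40 higher in shEZH2, with a median log2 difference of -0.20, where the median of all kept rows was 0.01 and that of the rows under 1000 was 0.03. Without overlap between the groups, 43 members were lower, beside 24.2% of all kept rows, and 10 were higher, beside 17.9%. On the deposited scale 39 were lower and 69 higher, with 17 lower and 33 higher without overlap, beside 8.42% and 50% of all kept rows. There the members' median was 0.14 and that of all kept rows 0.37. Relative to the median of all kept rows, the members' median was -0.20 on the mRPM scale, -0.23 on the deposited scale and -0.20 with median-ratio scaling. Nothing is read from these counts, since the rule names the same contrast.

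**Figure D2:**
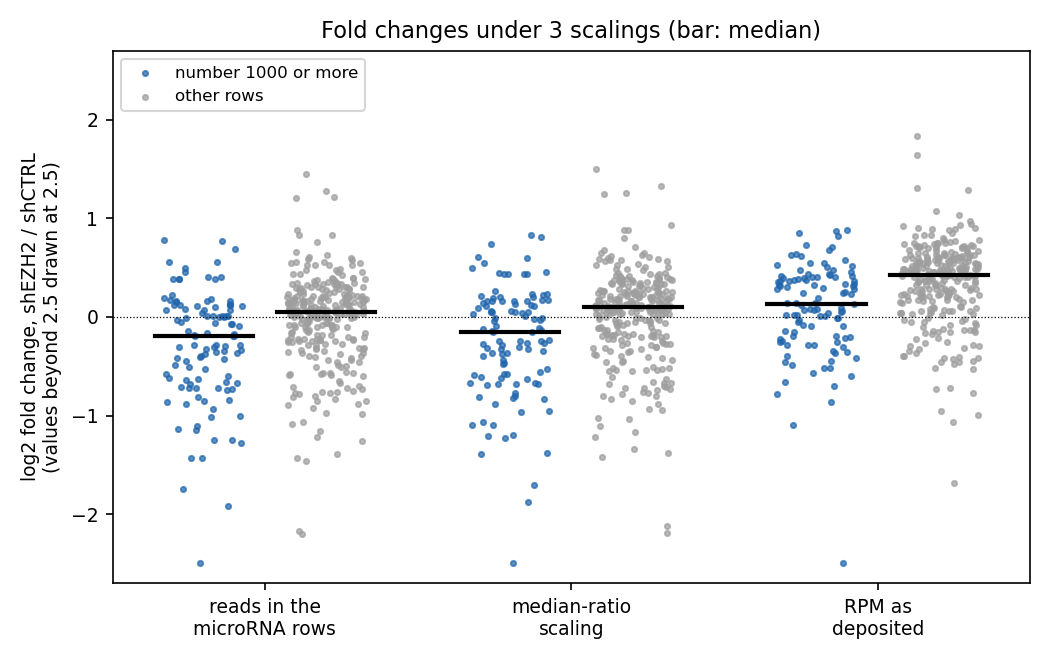
The log2 difference of shEZH2 from shCTRL for each high-numbered microRNA (blue, n = 108) and each other kept row (grey, n = 284) under 3 scalings, with a bar at each median and values beyond 2.5 drawn at 2.5. The members' median was -0.20 with reads in the rows, -0.15 with median-ratio scaling and 0.14 with the deposited RPM, in each case below the median of the other rows. A scaling shifts all rows of a library nearly alike, so that order could hardly change between the 3.

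One library weighed on the size of that median. Measured from the shCTRL mean, the members' median was -0.35 in shEZH2 replicate 1 and -0.09 in shEZH2 replicate 2, and relative to all kept rows the fit gave -0.08 without shEZH2 replicate 1 and -0.30 without shEZH2 replicate 2. Leaving out a shCTRL library gave relative medians of -0.28 and -0.24. Within a group, relative to all kept rows, replicate 2 exceeded replicate 1 by a median of 0.01 in shCTRL and 0.15 in shEZH2. The members differed by more than 2-fold between the 2 shCTRL libraries in 14 cases, between the 2 shEZH2 libraries in 15 cases and between the group means of log2 levels in 13 cases. For 40 of the 108 the difference between groups exceeded both differences between replicates, as it did for 31.4% of all kept rows.

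**Figure D3:**
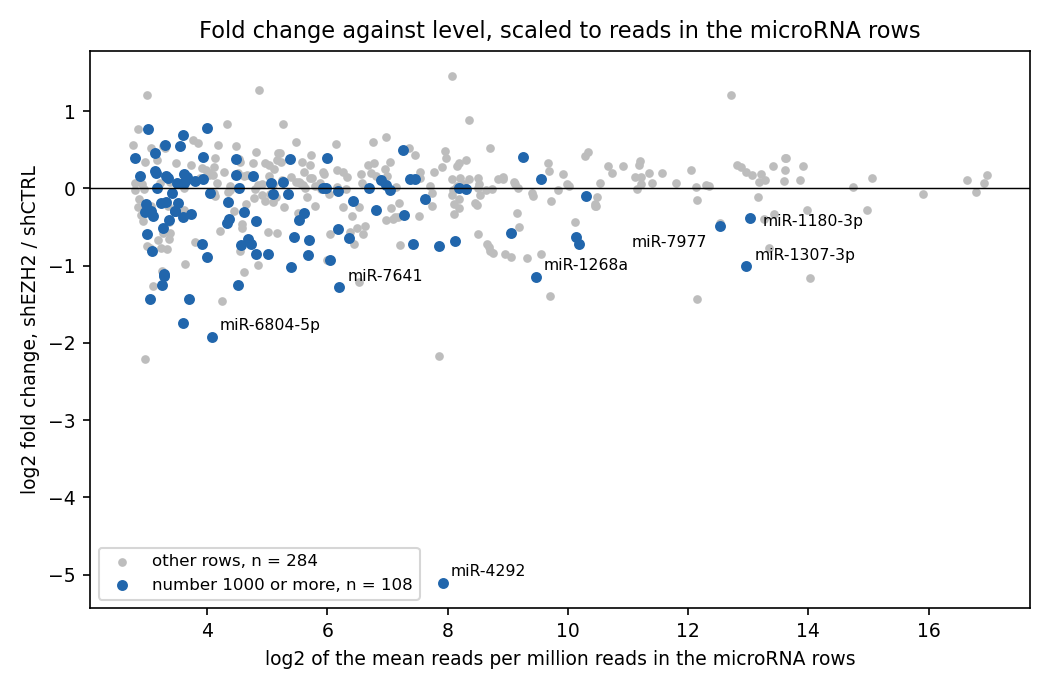
The log2 difference of shEZH2 from shCTRL (y axis) against the log2 of the mean level in mRPM (x axis), for the high-numbered microRNAs (blue) and the other kept rows (grey). miR-4292, at the bottom, rests on 1 library, and the abundant miR-1307-3p stands at -1.01.

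miR-4292 had 3925 reads in shCTRL replicate 1, 1 read in shCTRL replicate 2 and 0 reads in both shEZH2 libraries. In mRPM that was 966 and 0.218 in shCTRL, while a count of 0 allows up to 0.443 and 0.502 mRPM in the shEZH2 libraries (3 reads each, counting error only). The row passed the floor through 1 library alone, so no fold is given for it, although it is counted among the members lower without overlap and among the DESeq2 calls. Some other members with large gaps between replicates lie outside the rule for named members and were chosen after their values were seen. miR-6804-5p, a mirtron entry by its number, stood at 58.8 and 2.62 mRPM in shCTRL and 2.36 and 3.51 mRPM in shEZH2, high in 1 shCTRL library. miR-4455 stood at 102 and 137 mRPM in shCTRL and 43.6 and 379 mRPM in shEZH2, so the shEZH2 replicates lay on either side of both controls. miR-4483 stood at 16 and 40.4 mRPM in shCTRL and 5.17 and 194 mRPM in shEZH2, with the same order of libraries as miR-4455. miR-4448 stood at 18 and 16.2 mRPM in shCTRL and 15.8 and 1.67 mRPM in shEZH2, low in 1 shEZH2 library. Without miR-4292 and miR-6804-5p the members' median was -0.19.

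**Figure D4:**
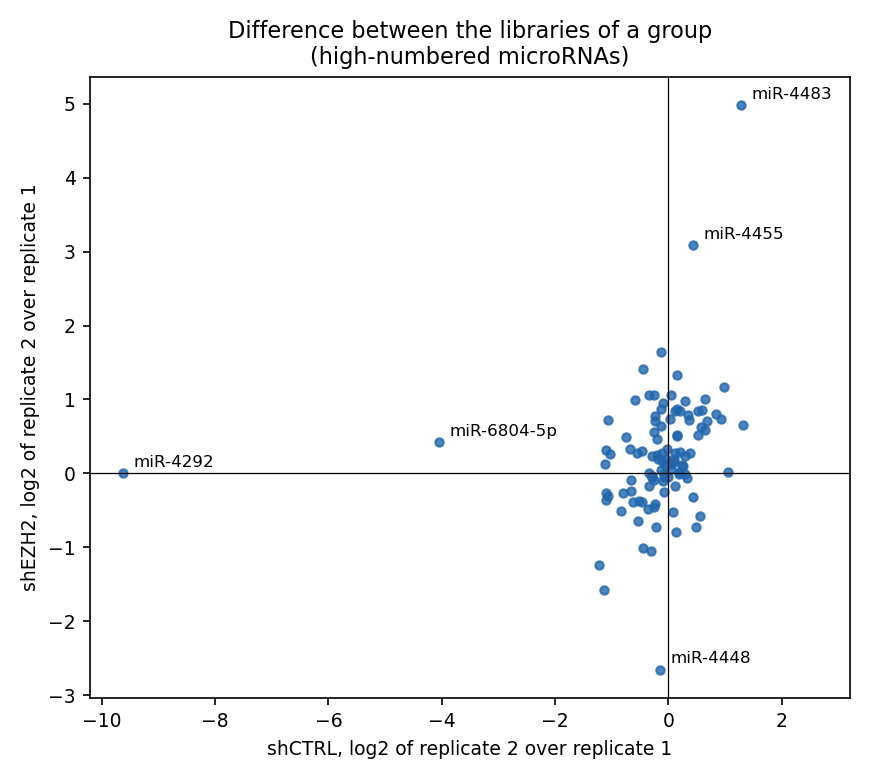
The log2 ratio of replicate 2 to replicate 1 in shEZH2 (y axis) against the same ratio in shCTRL (x axis) for each of the 108 high-numbered microRNAs. Most lie within 1 of both zero lines, and the 5 labelled ones have a ratio beyond 2 in 1 of the groups.

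A list drawn up by name, of members said to overlap another structured RNA, held 7. These were miR-1246 (U2 small nuclear RNA), miR-1260a, miR-1260b and miR-4454 (transfer RNA), miR-7641 (ribosomal RNA), miR-4485-3p (mitochondrial ribosomal RNA) and miR-3651 (a small nucleolar RNA). Their sequences were not compared with those RNAs here, and miR-7641 had no matched sequence. Of the 7, 6 were lower and 1 higher in shEZH2 on the mRPM scale, 4 of them lower without overlap (24.2% of all kept rows were), with a median of -0.37. On the deposited scale 3 were lower, 0 of them without overlap (8.42% of all kept rows were), with a median of 0.02. miR-7641 stood at 84.1 and 124 mRPM in shCTRL and 51.0 and 33.9 mRPM in shEZH2. Its groups did not overlap on the mRPM scale, with a log2 difference of -1.28 ± 0.317 (SE) and of -0.78 on the deposited scale, where they overlapped. miR-1260a stood at 1300 and 1315 mRPM in shCTRL and 1168 and 1284 mRPM in shEZH2, and was 0.34 higher on the deposited log2 scale. miR-1260b, which differs from miR-1260a by U9A over 18 bases and shares its seed, stood at 239 and 111 mRPM in shCTRL and 158 and 197 mRPM in shEZH2. The shEZH2 values of miR-1260b lay between its shCTRL values, and it amounted to between 8.41% and 18.4% of miR-1260a. miR-1246 stood at 86.1 and 81.0 mRPM in shCTRL and 41.1 and 80.4 mRPM in shEZH2, where 1 shEZH2 library was level with the controls. miR-4454 stood at 57.1 and 46.1 mRPM in shCTRL and 47.9 and 22.6 mRPM in shEZH2, and its groups overlapped. The scarcest of the list were miR-4485-3p at 12.8, 14.4, 8.43 and 12.5 mRPM and miR-3651 at 13, 8.29, 6.80 and 14.6 mRPM, in the order of libraries above, both with gaps between replicates as wide as those between groups. Both were above 0 in log2 difference on the deposited scale, at 0.02 and 0.23.

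Mirtron entries were taken by ranges of catalogue numbers alone, miR-6724-5p among them, and whether each is a spliced intron was not tested. They numbered 11, with 6 lower and 5 higher in shEZH2 and a median of -0.18 on the mRPM scale. On the deposited scale 3 were lower, with a median of 0.14. By number, the mRPM medians were -0.13 for the 36 members in the 1000s, -0.19 for the 5 in the 2000s, -0.30 for the 28 in the 3000s, -0.36 for the 24 in the 4000s and -0.18 for the 15 from 5000 on, with 22, 4, 20, 14 and 8 members lower. On the deposited scale each band's median was above 0, at 0.25, 0.12, 0.07, 0.02 and 0.14, with 11, 1, 11, 10 and 6 members lower.

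Among the members with look-alikes, miR-1827 stood at 1717 and 1190 mRPM in shCTRL and 988 and 760 mRPM in shEZH2, lower in both shEZH2 libraries, with a log2 difference of -0.72 ± 0.264 (SE), and of -0.29 with overlap on the deposited scale. As a percentage of let-7f-5p it was 18.2 and 14.1 in shCTRL and 9.51 and 8.75 in shEZH2, and let-7f-5p itself had a log2 difference of 0.09. miR-4510 stood at 17.5 and 20.9 mRPM in shCTRL and 24.4 and 26.3 mRPM in shEZH2, higher in both shEZH2 libraries by a log2 difference of 0.39 ± 0.235 (SE), and by 0.63 on the deposited scale. miR-6130, with the same seed, stood at 140 and 103 mRPM in shCTRL and 176 and 86.8 mRPM in shEZH2, with shEZH2 values on both sides of the controls. miR-4510 was between 0.0196% and 0.0245% of let-7c-5p and miR-6130 between 0.0782% and 0.176%. miR-1297 stood at 20.7 and 17.2 mRPM in shCTRL and 13.2 and 9.36 mRPM in shEZH2, between 0.448% and 0.963% of miR-26b-5p. Its log2 difference was -0.71 on the mRPM scale and -0.21, with overlap, on the deposited scale.

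Seeds were mostly not shared. The 98 members with a sequence had 93 different seeds, and 87 of them (88.8%) shared their seed with no other kept row, beside 152 of 235 rows under 1000 (64.7%). The 10 members that shared a seed with another member were the pairs miR-1260a and miR-1260b, miR-1268a and miR-1268b, miR-4510 and miR-6130, miR-6511a-3p and miR-6511b-3p, and miR-3180-3p and miR-3180. miR-1268a stood at 1037 and 873 mRPM in shCTRL and 298 and 621 mRPM in shEZH2, a log2 difference of -1.14 ± 0.394 (SE), and -0.70 on the deposited scale. miR-1268b stood at 41.1 and 41.7 mRPM in shCTRL and 17.1 and 29.3 mRPM in shEZH2. Both were lowest in shEZH2 replicate 1, and as they share 18 bases their rows are not independent.

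Both arms of the hairpin were members in 10 cases. In all 10 the more abundant arm was the same in all 4 libraries, and in 7 the arms' log2 differences had the same sign. miR-1908-5p stood at 240 and 189 mRPM in shCTRL and 136 and 121 mRPM in shEZH2, a log2 difference of -0.72 ± 0.208 (SE), and of -0.28 on the deposited scale. Its 3p arm stood at 15.7 and 11.1 mRPM in shCTRL and 16.4 and 12.4 mRPM in shEZH2, with overlap, so the 5p arm outnumbered it by 15.3 and 17.0 to 1 in shCTRL and by 8.32 and 9.81 to 1 in shEZH2. miR-3944-5p stood at 59.3 and 53.9 mRPM in shCTRL and 27.0 and 27.9 mRPM in shEZH2, a log2 difference of -1.01 ± 0.190 (SE), and of -0.52 on the deposited scale. Its 3p arm had a log2 difference of -0.73 on the mRPM scale. miR-3065-5p stood at 96.4 and 151 mRPM in shCTRL and 120 and 242 mRPM in shEZH2, and miR-3065-3p at 18.2, 27.5, 17.9 and 28.3 mRPM in the same order. Both arms of miR-3065 were higher in replicate 2 of each group, and their groups overlapped.

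Length and base composition were not part of the rule. The median length was 22 bases, as in the rows under 1000, but 15 of the 98 members (15.3%) had 18 bases or fewer, beside 0.426% of 235 rows under 1000. The median GC content was 63.1%, beside 50%, and 28 members (28.6%) had 70% or more, beside 9 rows under 1000 (3.83%). Precursor hairpins of 84 members had a median folding energy of -0.468 kcal per mol per base by RNAfold, beside -0.461 for the rows under 1000.

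Differences between the groups are also described by GC content, with nothing read from them, since the rule names this contrast. In bins of GC content under 50%, from 50% to 60%, from 60% to 70% and from 70% up, 4 of 15, 10 of 22, 24 of 33 and 23 of 28 members were lower on the mRPM scale. The medians in these bins were 0.04, 0.01, -0.30 and -0.59, and on the deposited scale 0.40, 0.41, 0.07 and -0.12. In the rows under 1000 the medians in the same bins were 0.12, -0.03, -0.15 and -0.19 on the mRPM scale (n = 108, 89, 29 and 9). On the deposited scale they were 0.49, 0.32, 0.23 and 0.23, each above 0. In the highest bin shEZH2 replicate 2 exceeded replicate 1 by a median log2 ratio of 0.69 in those 9 rows and 0.28 in the members. In the highest GC bin 5 of the 28 members (miR-4292, miR-4488, miR-4497, miR-4687-3p and miR-1343-5p) passed the floor only through the shCTRL mean, so the floor itself favours their being lower in shEZH2. Over members with both group means of at least 1 RPM, a choice made after seeing the data, 4 of 14, 10 of 21, 21 of 27 and 18 of 22 were lower, with medians of 0.03, 0.01, -0.30 and -0.43. The correlation of GC content with the log2 difference across members was r = -0.37 and rho = -0.43 (n = 98), with r = -0.32 and rho = -0.39 over those with both group means of at least 1 RPM (n = 84). Across rows under 1000 it was r = -0.30 and rho = -0.32 (n = 235). These are descriptions across rows that share the same 4 libraries and are not independent replicates. Between replicates, the correlation of GC content with the log2 ratio across members was r = -0.13 and rho = -0.07 in shCTRL. In shEZH2 it was r = 0.06 and rho = 0.12. Over members with both group means of at least 1 RPM, r was 0.07 in shCTRL and 0.11 in shEZH2. Across rows under 1000 it was r = 0.01 and rho = 0.02 in shCTRL and r = 0.23 and rho = 0.20 in shEZH2. In members with a mean of at least 5 RPM it was r = -0.26 and rho = -0.14 in shCTRL and r = -0.04 and rho = 0.05 in shEZH2. In those of at least 5 RPM the correlation with the group difference was r = -0.50 and rho = -0.68 (n = 39), and in those under 5 RPM r = -0.28 and rho = -0.31 (n = 59). Among the members with 70% GC or more, miR-6724-5p stood at 81.9 and 89.3 mRPM in shCTRL and 32.8 and 59.9 mRPM in shEZH2, lower in both shEZH2 libraries by a log2 difference of -0.93 ± 0.334 (SE), and by -0.46 with overlap on the deposited scale. miR-4497, chosen after its values were seen, stood at 21.4 and 16.6 mRPM in shCTRL and 3.10 and 7.52 mRPM in shEZH2, and passed the floor only through shCTRL.

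**Figure D5:**
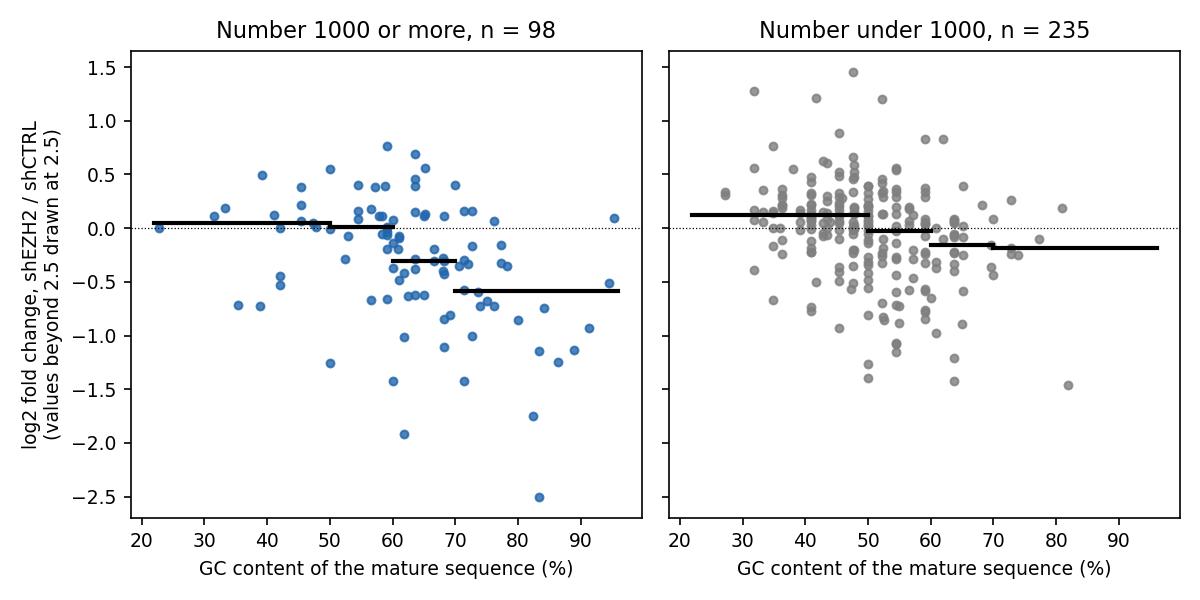
The log2 difference of shEZH2 from shCTRL (y axis, values beyond 2.5 drawn at 2.5) against the GC content of the mature sequence (x axis, %) for the 98 high-numbered microRNAs with a RefSeq sequence (left) and 235 rows numbered under 1000 (right), with a bar at the median of each GC bin. On this mRPM scale the bars step down from 0.04 to -0.59 on the left and from 0.12 to -0.19 on the right, where the last bin holds 9 rows. On the deposited scale, not drawn, the medians of the first and last bins on the right were 0.49 and 0.23.

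The floor decided which scarce microRNAs were included. Both group means were at least 1 RPM for 94 of the 108, only the shCTRL mean for 8 and only the shEZH2 mean for 6. Without their highest library 11 members would have been under the floor. Reads were present in all 4 libraries for 107 members, and 82 had at least 1 RPM in each. Just inside were miR-4687-3p at a mean of 1.10 RPM, miR-4707-3p at 1.09 RPM and miR-6511a-3p at 1.07 RPM, and just outside were miR-7854-3p at 0.985 RPM, miR-3176 at 0.982 RPM and miR-6726-5p at 0.981 RPM.

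The polyA libraries offered a measure that the rule did not use, the RNA of the genes in whose span the members lie, under another hairpin. CDCA8, a subunit of the chromosomal passenger complex of mitosis, stood at 14.2 and 16.5 RPM in the controls and at 3.98 and 3.94 RPM in shCDCA8. Of the members, 76 lay within the span of another RefSeq gene, on either strand, and 17 had a row of their own in the polyA table. Together these gave 75 rows, of which 52 were abundant enough to test. In limma on log2(RPM + 1), 38 of the 52 were called (73.1%), 7 higher and 31 lower in shCDCA8, where 66.4% of all 11833 tested genes were called, 18.8% higher and 47.6% lower. Scaled to the reads in the gene rows, 12 were called higher and 23 lower, where 33.4% of all tested genes were called higher and 32.5% lower. In the fit on log2(RPM + 1) the median log2 difference of the 52 was -0.51, where that of all tested genes was -0.27. Among 9 luminal prostate markers, all above 0, the sum was 3757 and 3915 RPM in the controls and 1932 and 2035 RPM in shCDCA8. KLK3, at 1454 and 1477 RPM in the controls and 364 and 438 RPM in shCDCA8, was the largest part of it, while KRT8 (198 and 216 against 333 and 357 RPM) and KRT18 (196 and 215 against 286 and 294 RPM) were higher in shCDCA8. Summed markers of other cells stood, in the controls and in shCDCA8, at 6.04 and 8.35 against 9.0 and 10.1 RPM for leukocytes, 9.79 and 12.2 against 3.85 and 4.25 RPM for fibroblasts, 5.27 and 6.47 against 1.36 and 1.86 RPM for endothelium and 2.53 and 2.53 against 2.03 and 2.35 RPM for basal cells. Each of these sums rested almost wholly on a single gene in every polyA library, so it says little about a cell type. The gene was CD68 for leukocytes, COL1A1 for fibroblasts, VWF for endothelium and KRT14, the only basal gene with values, for basal cells. Among the scarce fibroblast genes COL1A2 was lower in both shCDCA8 libraries, while COL3A1 was higher in both. CD3E was at 0 in 3 of these 4 libraries, DCN in 1 and PECAM1 in 2, and PTPRC, CDH5, KRT5 and TP63 were not analysed here. The part of these markers in the values was not tested.

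GDF15, a secreted stress-response cytokine whose gene spans miR-3189, fell from 570 and 600 RPM in the controls to 207 and 196 RPM in shCDCA8, a log2 change of -1.53 ± 0.0861 (SE, limma adjusted p = 7.11e-08). It was called under each scaling tried. ARF1, a small GTPase of Golgi vesicle traffic around miR-3620, stood at 588 and 617 RPM in the controls and 418 and 442 RPM in shCDCA8, and SREBF1, a regulator of lipid synthesis around miR-6777, at 155 and 196 RPM in the controls and 98.5 and 140 RPM in shCDCA8. Their log2 differences of -0.49 and -0.57 were called on the deposited scale and became -0.17 and -0.26 with median-ratio scaling, where neither was called. ECHS1, a mitochondrial fatty acid oxidation enzyme around miR-3944, stood at 162 and 170 RPM in the controls and 164 and 171 RPM in shCDCA8. DDX5, an RNA helicase that works with DROSHA, lies around miR-3064 and stood at 130 and 160 RPM in the controls and 165 and 161 RPM in shCDCA8. Neither was called on the deposited scale, with log2 differences of 0.02 and 0.18, and both were called higher with median-ratio scaling, at 0.33 and 0.49. USMG5, around miR-1307, is outside the rule for named genes and stood at 36.0 and 37.9 RPM in the controls and 44.5 and 43.5 RPM in shCDCA8 (limma adjusted p = 0.0534). Across 64 members at 1 locus inside a protein-coding gene, the level of the gene and that of the microRNA in the shCTRL libraries had r = -0.26 and rho = -0.20. That is a description across members from separate libraries. A gene around several members, such as ECHS1 or SREBF1, was entered once for each.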

How the data were processed

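Small RNA was sequenced from 4 C4-2 libraries and polyA RNA from 4 others, on the DNBseq platform per the labels' protocols. The authors deposited RPM, reads scaled to a library total, for every row. The submitters' processing notes name cutadapt, TopHat, HTSeq, edgeR and hg19, without their roles. No source used here says what that total counts. For small RNA and polyA alike, 100% of the values came out within 0.01 of a whole number of reads, so reads were recovered and rescaled to the reads in the microRNA rows (mRPM).

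Rows with a mean of at least 1 RPM were fitted with limma 3.58.1 (trend, two-sided) on log2(mRPM + 1), with Benjamini-Hochberg adjustment over all 392 rows and a threshold of 0.05. Fold changes are on that scale, which understates those of scarce rows. The recovered reads were also fitted with edgeR 4.0.16 and DESeq2 1.42.0. PolyA genes with at least 1 RPM in 2 libraries were fitted alike on log2(RPM + 1). The scripts were tested on simulated data. Hairpins were folded with RNAfold 2.7.2. RefSeq sequences and gene spans are from GRCh38.p14, not the files' build.

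Named members were the 10 most abundant and up to 6 each with the largest rise and fall at 5 RPM or more without overlap. Members listed by name as overlapping structured RNAs and up to 5 pairs of arms or shared seeds were also named. So were 3 rows on each side of the floor. The 5 most abundant polyA rows were named too. Members and lists were chosen with earlier results of these data known.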

Additional observations from a re-analysis of the deposited data

How the results depend on the processing

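The limma count of 0 rows called became 9 with DESeq2 and 1 on the deposited RPM, and the members' count of 0 became 2 with DESeq2. edgeR called 0. The members' median log2 difference of -0.20 turned to 0.14 on the deposited RPM and was -0.059 with no floor (874 rows). Leaving out 1 library each gave -0.35 to -0.095. The 43 members lower without overlap (24.2% of all kept rows were) became 17 on the deposited RPM (8.42% of all rows), 21 of 45 with at least 5 RPM in 2 libraries (24.1%) and 159 of 874 with no floor (16.9%). Leaving out a library gave 54 to 63 (34.4% to 40.1% of all rows), since fewer libraries can overlap. Over the 94 members with both group means of at least 1 RPM, chosen after seeing the data, the median was -0.19. The members' mean share was 3.95% in shCTRL and 2.72% in shEZH2 of the reads in the rows (a difference of -1.23 points, and -1.40 to -1.05 with a library left out). It was 0.490% and 0.453% of the library total behind the deposited RPM (-0.0372 points), and 6.45% and 4.73% of the rows without let-7 (-1.72 points). These points have different bases and are not compared. Except where a value or the number of libraries or rows shows it, the cause was not tested. Of the 29 named members, 4 turned sign on the deposited RPM: miR-1180-3p, miR-1260a, miR-4485-3p and miR-3651. With edgeR miR-1260a and miR-3651 turned, and miR-3651 also turned with DESeq2 and when scaled to the rows without let-7. Depending on the library left out, miR-1260b, miR-3065-5p, miR-3065-3p, miR-6130, miR-1908-3p or miR-3651 turned.

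Replicate numbers are shared between groups, but nothing says that they mark a common batch. Deviations of same-numbered libraries correlated at 0.27 over all kept rows. With the replicate block, 0 rows and 0 members were called. In this balanced layout the block cannot change a difference between the groups, so the median of -0.20 was bound to be the same. In the polyA table the block gave 42 of 52 rows called, against 38 without it, where 66.4% of all tested genes were called without it. The share of all genes called with the block is not given here, so nothing is read from the 42. The sequence medians changed little, with a GC content of 59.5% under the stricter floor.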
